A study of Mus musculus with 2 samples.

Results

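Mir107, Mir103-1 and Mir103-2 are 3 of the 2202 miRNA genes counted in small RNA libraries of C2C12 myotubes. They were taken by name as the genes that lie in introns of the pantothenate kinase genes Pank1, Pank3 and Pank2. They were singled out with their read counts on the gene's own strand known, including the large difference of Mir107 between the libraries. Their levels and their differences are therefore given as descriptions, without tests. C2C12 is a mouse myoblast line that stems from injured thigh muscle of C3H mice and fuses into multinucleated muscle fibres in culture. Both libraries were made from cells differentiated for 72 h, labelled biological replicates 1 and 2 of 1 group and drawn from separate biosamples of the same line. The labels list no treatment and no undifferentiated control, so values were compared between genes within each library and between the 2 libraries.

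Pantothenate kinases catalyse the first committed step of coenzyme A synthesis, and the Pank1, Pank2 and Pank3 genes each carry miR-103 or miR-107 in an intron. A miRNA hairpin is cut by Drosha and Dicer into a 5p and a 3p arm, of which the 3p arm is the main product of these genes. The seed near the 5′ end of a mature miRNA pairs with target mRNAs. In mice, miR-103 and miR-107 are known to repress caveolin-1 in liver and fat and to affect insulin sensitivity, and in human cells they are known to repress Dicer.

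The hairpins are printed first because the sequences decide which reads can be told apart. They are RefSeq sequences on GRCm38.p6, which is the mm10 assembly, written 5′ to 3′ with both annotated mature arms in capitals.
Mir107 (chr19:34820687-34820773, minus strand): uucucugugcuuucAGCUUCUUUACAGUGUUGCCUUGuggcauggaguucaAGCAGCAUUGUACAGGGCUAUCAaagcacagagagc
Mir103-2 (chr2:131288052-131288137, plus strand): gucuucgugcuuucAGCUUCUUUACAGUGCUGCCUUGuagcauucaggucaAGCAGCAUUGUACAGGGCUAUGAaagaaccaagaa
Mir103-1 (chr11:35782396-35782481, plus strand): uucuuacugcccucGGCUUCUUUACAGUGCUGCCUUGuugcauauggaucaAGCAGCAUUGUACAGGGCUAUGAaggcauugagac

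The mature arms follow with the seed, bases 2 to 8, in capitals, to show what the members share and where they part. The miR-103-3p arm is the same for Mir103-1 and Mir103-2.
miR-107-3p: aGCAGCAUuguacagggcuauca
miR-103-3p: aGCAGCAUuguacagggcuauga
miR-107-5p: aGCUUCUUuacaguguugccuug
miR-103-2-5p: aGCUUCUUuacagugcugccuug
miR-103-1-5p: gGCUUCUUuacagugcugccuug

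All 3 genes share the 3p seed GCAGCAU and the 5p seed GCUUCUU, and among 1679 mature miRNA names in the RefSeq table no other gene carries either seed. Counting from 1 at the 5′ end of the arm, miR-103-3p and miR-107-3p differ only by G22C, with the miR-103 base first. The 5p arms differ by A1G between miR-103-2-5p and miR-103-1-5p, and by C16U between miR-103-2-5p and miR-107-5p. Over the whole hairpin, Mir107 was 83.9% identical to Mir103-2 and 80.5% identical to Mir103-1, and Mir103-2 was 80.2% identical to Mir103-1 in a global alignment.

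Each hairpin (Mir107, ENSMUSG00000065594.1; Mir103-2, ENSMUSG00000065563.1; Mir103-1, ENSMUSG00000065553.1) lies on the strand of its host gene, inside intron 5 of the 6 introns of the host's principal transcript in GENCODE M21. Mir107 begins 326 bases after the upstream exon of Pank1, in an intron of 7282 bases. Mir103-2 begins 454 bases after the upstream exon of Pank2, in an intron of 5801 bases, and Mir103-1 688 bases after that of Pank3, in an intron of 1740 bases. All annotated host transcripts that span a hairpin (3 of Pank1, 7 of Pank2 and 1 of Pank3) have it in an intron. No annotated miRNA gene overlaps any member on the opposite strand, and none of the members had a read on the opposite strand.

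Reads with more than 1 mapping position are not in the gene counts, so the point at which a read becomes particular to 1 gene matters for every value below. A read that starts at the 5′ end of the 3p arm has the same bases in all 3 hairpins up to base 21. From base 22 on it separates Mir107 from the Mir103 copies. The 2 Mir103 copies stay identical up to base 24 and part at base 25, which lies beyond the annotated arm of 23 bases. A full-length miR-103-3p read therefore matches both Mir103 hairpins, whereas a full-length miR-107-3p read matches 1 annotated hairpin. On the 5p side, 16 bases separate each arm from every other annotated hairpin. For miR-103-1-5p and miR-103-2-5p that rests on the first base, because without it their reads of up to 23 bases match each other's hairpin. The longest exact run shared was 27 bases between the Mir103 copies and 24 bases between Mir107 and either copy. No other annotated miRNA gene shared a run of 20 or more bases with a member. These matches were made against annotated hairpins only, and the files do not say which arm a read came from.

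**Figure D1:**
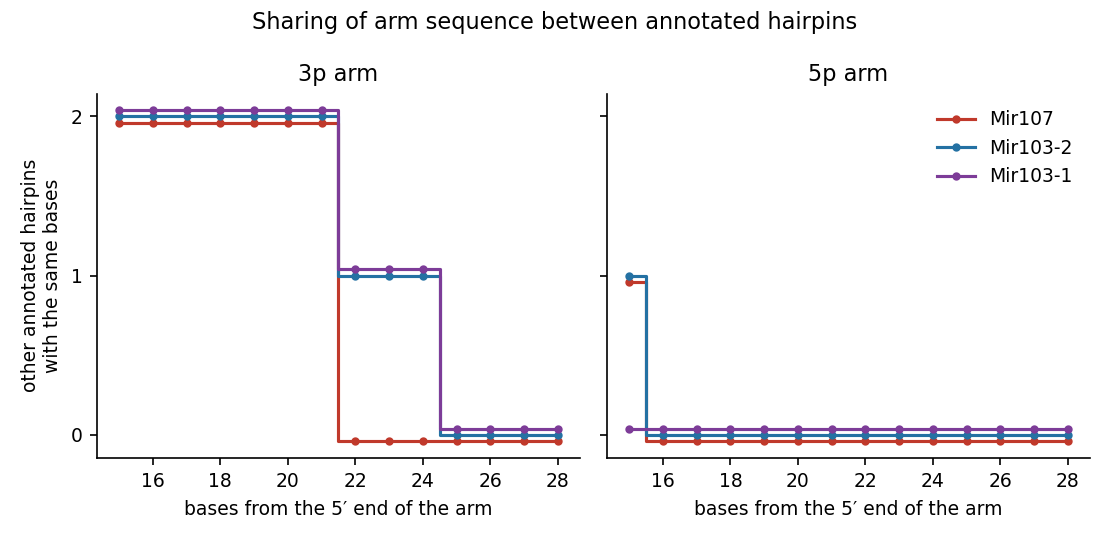
Number of other annotated miRNA hairpins that hold the same bases as a member (vertical axis) against the number of bases read from the 5′ end of its 3p arm (left) or 5p arm (right), with lines for Mir107, Mir103-2 and Mir103-1 drawn slightly apart where they coincide. The 3p arm of Mir107 becomes particular to its gene at 22 bases and those of the Mir103 copies at 25 bases, while the 5p arms do so by 16 bases.

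Replicate 1 held 15349205 reads and replicate 2 held 18450359 reads, of which 7581366 (49.4%) and 9865298 (53.5%) were counted on the own strand of a miRNA gene. Levels are given in CPM, for which the assigned reads of each library were scaled to sum to 1000000 over all genes. At a one-sided limit, a gene with no read may still have a level of up to 3 reads, which is 0.396 CPM in replicate 1 and 0.304 CPM in replicate 2. Intervals on counts cover counting error only. They treat each read as a separate count, and the labels mention no molecular identifiers. The muscle identity of the cells was checked on 8 skeletal muscle miRNA genes, which had a summed level of 355284 CPM in replicate 1, against 428244 CPM in replicate 2, nearly all of it Mir206. Of these 8 genes, 5 (62.5%, against 12.4% of all genes) reached 2 CPM in both libraries. Mir1a-1 was at 3.03 and 2.84 CPM and Mir1a-2 at 4.22 and 1.82 CPM in replicates 1 and 2. Mir133a-1 was at 1.19 and 2.84 CPM and Mir133a-2 at 1.06 and 1.01 CPM. Reads that matched several places are not in these values. Of 6 neuronal genes, 5 had no read in either library. The endothelial marker Mir126a was at 217 and 42.9 CPM and the 4 blood markers summed to 101 and 183 CPM in replicates 1 and 2. The 5 epithelial markers, of which 2 had no read, summed to 4.35 and 2.13 CPM, and the hepatocyte marker Mir122 was at 1.06 and 0.405 CPM in replicates 1 and 2.

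Mir107 was the most abundant of the 3 genes in both libraries. It had 6905 reads in replicate 1 and 876 reads in replicate 2, or 911 CPM (95% exact Poisson interval 889 to 933) and 88.8 CPM (83.0 to 94.9). It ranked 73rd of all miRNA genes in replicate 1 and 135th in replicate 2, and its mean of 499.8 ± 581 CPM (SD, n = 2) had an SD larger than itself. Mir107 thus stood 10.3-fold above the median gene detected in both libraries in replicate 1 (88.8 CPM) and level with it in replicate 2, at 1.02 times a median of 86.9 CPM.

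Mir103-2, in Pank2, had 203 reads in replicate 1 and 196 reads in replicate 2. These were 26.8 CPM (95% exact Poisson interval 23.2 to 30.7) and 19.9 CPM (17.2 to 22.9), with a mean of 23.3 ± 4.89 CPM (SD, n = 2). It ranked 180th in replicate 1 and 177th in replicate 2. Of the 3 genes it was the most even between the libraries.

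Mir103-1, in Pank3, had 19 reads in replicate 1 and 5 reads in replicate 2, or 2.51 CPM (95% exact Poisson interval 1.51 to 3.91) and 0.507 CPM (0.165 to 1.18). Its mean was 1.51 ± 1.41 CPM (SD, n = 2). The order Mir107, Mir103-2, Mir103-1 held in both libraries, and the intervals of neighbours in it did not overlap in any pairing of the libraries. Mir107 and Mir103-2 reached 2 CPM in both libraries and Mir103-1 only in replicate 1. Over all 2202 genes, 12.4% reached 2 CPM in both. Because reads that match both copies were left out, Mir103-1 and Mir103-2 are reported as uncertain, and neither value measures mature miR-103-3p.

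**Figure D2:**
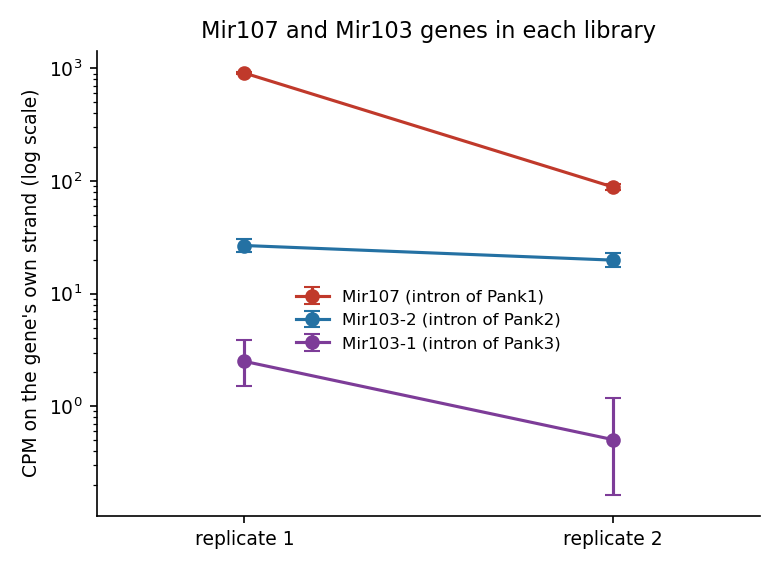
CPM on the gene's own strand (log scale) of Mir107, Mir103-2 and Mir103-1 in replicate 1 and replicate 2, with points for the 2 libraries and bars for 95% exact Poisson intervals of the counts. Mir107 lies at 911 and 88.8 CPM, above Mir103-2 at 26.8 and 19.9 CPM and Mir103-1 at 2.51 and 0.507 CPM.

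Within a library, Mir107 can be set against the Mir103 copies without any scaling between libraries. Mir107 made up 96.9% of the reads of the 3 genes in replicate 1 (95% exact Clopper-Pearson interval 96.5% to 97.3%) and 81.3% in replicate 2 (78.9% to 83.6%). It exceeded the summed Mir103 copies 31.1-fold in replicate 1 and 4.36-fold in replicate 2. On the log2 scale, with 0.5 reads added to each side, this was 4.96 and 2.12, or 3.54 ± 2.00 (SD, n = 2). The direction was the same in both libraries and the size was not. The ratio in replicate 1 was 7.14 times that in replicate 2. Its 95% interval, from a normal approximation on the log scale, was 5.82 to 8.75 and covers counting error only. As the Mir103 counts hold only reads that matched 1 copy, these ratios do not measure miR-107 against miR-103.

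Between the copies, Mir103-2 had 10.7 times the reads of Mir103-1 in replicate 1 and 39.2 times in replicate 2. Mir103-1 gave 8.56% of the reads of the copies in replicate 1 (95% exact Clopper-Pearson interval 5.23% to 13.0%) and 2.49% in replicate 2 (0.813% to 5.71%). These intervals overlap, and the 5 reads of Mir103-1 in replicate 2 limit the comparison.

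The CPM of Mir107 in replicate 1 was 10.3 times its CPM in replicate 2 (95% exact conditional interval 9.56 to 11.02, counting error only). Mir103-1 was 4.94-fold higher in replicate 1, with a wide interval of 1.79 to 16.9. Mir103-2 was 1.35-fold higher, with an interval of 1.10 to 1.65, and the 2 Mir103 copies together 1.44-fold higher (1.18 to 1.75). Mir107 and Mir103-1 passed a ratio of 2 and Mir103-2 did not. Of the 415 genes with 10 or more reads in the 2 libraries together, 18.1% had a ratio of 2 or more and 11.1% a ratio of 0.5 or less, and the median ratio was 1.03. The difference of Mir107 was known when the gene was chosen, so its place is a description: its ratio ranked 2nd of the 415 genes, after Mir3066 with 24 reads in replicate 1 and 0 in replicate 2, and Mir103-2 ranked 148th. The next gene, Gm23935, with 548 reads in replicate 1 and 71 in replicate 2, had a ratio of 10.04, inside the interval of Mir107. A biological coefficient of variation of 0.435 was estimated between the libraries over 274 genes. These ratios compare 2 libraries of 1 group and not conditions.

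**Figure D3:**
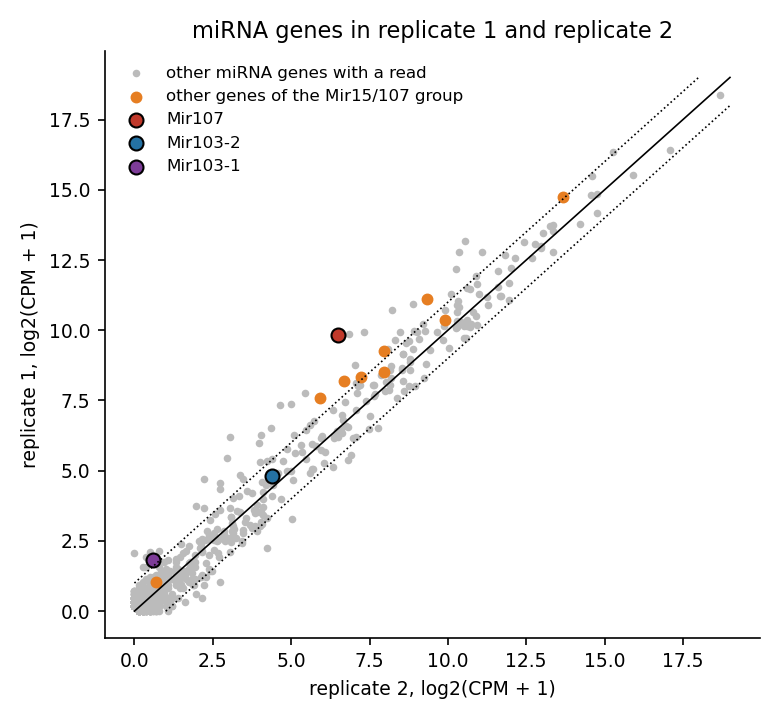
Level of each miRNA gene with a read in replicate 1 (vertical axis, log2(CPM + 1)) against replicate 2 (horizontal axis, log2(CPM + 1)), with other genes of the extended group of Mir15 and Mir107 in orange, the solid line at equal levels and dotted lines at 2-fold differences of CPM + 1. Mir107 lies far above the upper dotted line at 911 and 88.8 CPM, Mir103-2 lies near the solid line at 26.8 and 19.9 CPM, and Mir103-1 lies among low genes.

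Other values also differed between the libraries. Multimapping reads, which hold any read common to several members, were 22.01% of reads in replicate 1 and 17.9% in replicate 2. Their number was 3378438 in replicate 1 and 3295854 in replicate 2, and their origin is not recorded in the tables. The ratio of replicate 1 to replicate 2 was 5.06 for the endothelial marker Mir126a, 8.13 for the epithelial marker Mir200c on 25 and 4 reads, and 2.60 for the hepatocyte marker Mir122 on 8 and 4 reads. The blood marker Mir451a had a ratio of 3.25 on 90 and 36 reads. Other markers went the opposite way. The ratio was 0.501 for the blood marker Mir142 on 675 and 1752 reads and 0.100 for Mir150 on 1 and 13 reads. For the epithelial marker Mir141 it was 0.694 on 8 and 15 reads. The part of these values in the Mir107 difference was not tested.

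Mir107 was also set beside genes with at least 1 annotated arm that needs 22 to 30 bases before it matches no other annotated hairpin. Annotated arms were matched to the hairpin by genome position for 366 of the 415 genes with 10 or more reads. The other genes, among them Mir378a and Mir143, were left out of this comparison. Apart from the members, 48 such genes had 10 or more reads, and their median ratio between replicate 1 and replicate 2 was 1.13. Of these, 10 had a ratio of 2 or more (20.8%, against 18.1% of all genes). The highest ratio of the 48 was 9.11, that of Mir3074-1 on 21 and 3 reads in replicates 1 and 2. Among the 37 with 100 or more reads, ratios ran from 0.277 to 3.42, the highest being that of Mir194-2. The 6 other genes whose last arm becomes particular at exactly 22 bases had ratios of 0.609 to 1.57, and none passed 2. Base 22 lies within the 23 bases of miR-107-3p. Whether it lies within the arms of these 6 genes is not given here, so their limit may differ from that of Mir107. Mir133b, a muscle miRNA of this kind, was at 13610 CPM in replicate 1 and 10568 CPM in replicate 2.

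**Figure D4:**
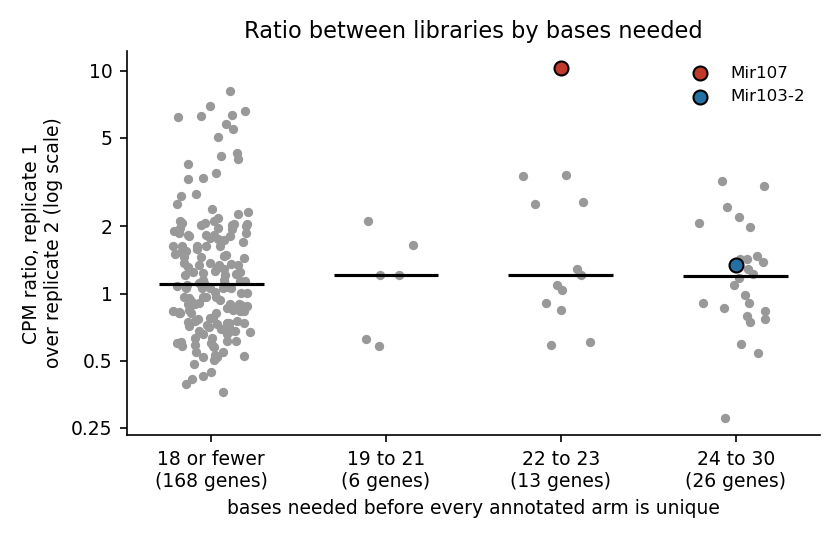
CPM ratio between replicate 1 and replicate 2 (log scale) of genes with 100 or more reads, grouped by the number of bases from the 5′ end needed before every annotated arm matches no other annotated hairpin; bars are medians. Medians ran from 1.10 for 168 genes at 18 bases or fewer to 1.22 for 13 genes at 22 to 23 bases, the group in which Mir107 lies at 10.3, and Mir103-2 lies at 1.35 among 26 genes at 24 to 30 bases.

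The members belong to a wider group, the extended group of Mir15 and Mir107, that carries AGCAGC near the 5′ end of an arm. Their arms are printed because the motif, in capitals, starts at base 1 in the members and at base 2 in the others, which shifts the seed by 1 base.
miR-107-3p: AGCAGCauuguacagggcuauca
miR-103-3p: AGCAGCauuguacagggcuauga
miR-15a-5p: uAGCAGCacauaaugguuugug
miR-16-5p: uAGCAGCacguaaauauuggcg
miR-497a-5p: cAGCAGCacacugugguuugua
miR-322-5p: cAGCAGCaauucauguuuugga
miR-503-5p: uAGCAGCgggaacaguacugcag

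Among these relatives, Mir15a, Mir16-1, Mir195a and Mir497 are known to restrain cyclins and cell cycle entry, and Mir322 and Mir503 to promote cell cycle exit of myoblasts. Of the 10 relatives, 8 (80.0%) reached 2 CPM in both libraries, against 12.4% of all genes. Mir195b had no read. Mir497b, which lies opposite Mir497 and has no AGCAGC arm in the RefSeq table, was at 1.06 and 0.608 CPM in replicates 1 and 2. Mir322 was the most abundant, at 27578 CPM in replicate 1 and 13017 CPM in replicate 2. Mir15a was at 2234 and 643 CPM and Mir503 at 1330 and 969 CPM in replicates 1 and 2, so Mir15a was the higher of the pair in replicate 1 and Mir503 in replicate 2. Mir107, at 911 CPM in replicate 1, stood above Mir16-1 (615 CPM), Mir497 (360 CPM), Mir195a (325 CPM), Mir15b (288 CPM) and Mir16-2 (190 CPM) there. In replicate 2 Mir107, at 88.8 CPM, lay below Mir497 (247 CPM), Mir16-1 (251 CPM), Mir195a (149 CPM) and Mir15b (103.1 CPM), and above Mir16-2 (59.5 CPM). Its place in the group was thus not the same in the 2 libraries. Mir16-1 and Mir16-2 give an identical mature arm, and their values leave out reads that matched both.

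The 9 relatives with 10 or more reads had higher levels in replicate 1, from 1.37-fold for Mir503 to 3.48-fold for Mir15a. The interval reached below 1 only for Mir497b (ratio 1.74, interval 0.528 to 6.07, on 14 reads). Of these, 6 (66.7%) passed a ratio of 2, against 18.1% of all genes. Their median ratio was 2.19, against 1.03 over all genes. These genes lie in groups of close neighbours: Mir15a with Mir16-1, Mir15b with Mir16-2, Mir195a with Mir497 and Mir497b, and Mir322 with Mir503. Their 9 ratios may therefore not be separate observations. The ratio of Mir107 lay above the interval of the highest relative, Mir15a (3.38 to 3.58), and that of Mir103-2, 1.35, was within its counting interval of those of Mir503 and Mir497 (1.37 and 1.46).

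**Figure D5:**
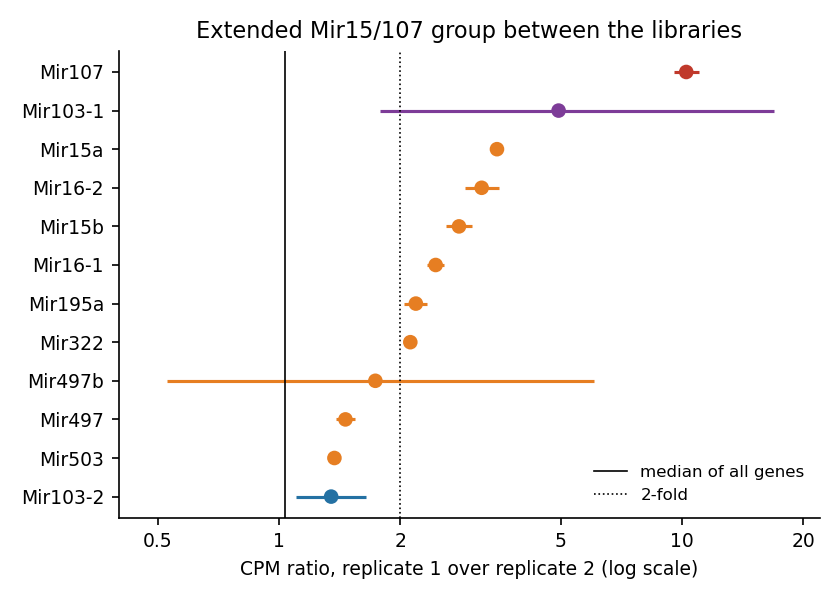
CPM ratio between replicate 1 and replicate 2 (log scale) for the 12 genes of the extended group of Mir15 and Mir107 with 10 or more reads in total, with points for the ratio and bars for 95% exact conditional intervals (counting error only), the solid line at the median of all genes (1.03) and the dotted line at 2. Mir107 lies at 10.3, the relatives between 1.37 and 3.48, Mir103-2 at 1.35, and Mir103-1 at 4.94 with the widest member interval.

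A list of 28 other miRNA genes reported to act in insulin, cholesterol or lipid metabolism was read beside the members. Of these, 21 (75.0%) reached 2 CPM in both libraries, against 12.4% of all genes. Among the 24 with 10 or more reads, 3 (12.5%, against 18.1% of all genes) had a ratio of 2 or more in replicate 1 over replicate 2 and 2 (8.33%, against 11.1%) had a ratio of 0.5 or less. Both shares lay near those of all genes, and the median ratio was 0.9503. The 4 most abundant were Mir378a, in an intron of Ppargc1b (112998 ± 36038 CPM), Mir143 (35574 ± 15314 CPM), Mir130a (16401 ± 3465 CPM) and Mir27b (7874 ± 1086 CPM; SD, n = 2 for each), all far above Mir107. Mir33, which lies in an intron of the sterol regulator gene Srebf2, was at 90.2 CPM in replicate 1 and 218 CPM in replicate 2, opposite in direction to Mir107.

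As intronic miRNAs the members were read beside all 733 miRNA genes that lie in an intron of a protein-coding gene on its strand. Leaving out the members, 111 of 730 (15.2%, against 12.4% of all genes) reached 2 CPM in both libraries. Of the 180 with 10 or more reads, 34 (18.9%) had a ratio of 2 or more, near the 18.1% of all genes. Their median ratio was 0.976, against 1.03 over all genes. The highest finite ratio among these 180 genes was 9.11, that of Mir3074-1 with 21 and 3 reads in replicates 1 and 2. The libraries hold no mRNA, so Pank1, Pank2 and Pank3 levels were not measured here.

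The genes most like each member were sought by Euclidean distance in log2(CPM + 1) over the 2 libraries, among 414 other genes. With 2 libraries this measures closeness of level and ratio only. Mir20a came closest to Mir107 (distance 0.355), at 923 CPM in replicate 1 and 114 CPM in replicate 2. Mir98 (distance 0.851) was at 989 and 160.1 CPM and Mirlet7f-2 (distance 1.19) at 436 and 129 CPM in replicates 1 and 2. Closest to Mir103-2 were Mir7-1 (0.145), Mir199a-2 (0.227) and Mir1249 (0.298), all between 20.4 and 29.5 CPM in either library. Closest to Mir103-1 were Mir3074-1 (0.233), Mir669e (0.298) and Mir200c (0.310), each with 25 reads or fewer per library.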

How the data were processed

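Small RNA libraries from 2 biological replicates of C2C12 myotubes were used. Raw counts of reads for each miRNA gene were deposited, made on mm10 with annotation M21 per the accompanying deposited text. The sources used here do not give the aligner, the counting program, trimming or read filters. Counts on the gene's own strand were used, as read from the values. Lines for unmapped, multimapping and no-feature reads, 50.6% and 46.5% of reads in replicates 1 and 2, were left out of library sizes. Gene names, coordinates and hairpins came from GENCODE M21, and printed sequences from RefSeq (GRCm38.p6). No genome sequence was searched.

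CPM used own-strand reads over all genes. Ratios between the libraries (replicate 1 over replicate 2) carry 95% exact conditional intervals, and detection meant 2 CPM or more in both. With 1 group there is no contrast for edgeR's quasi-likelihood test, and no p-value was computed. The coefficient of variation is the square root of edgeR's common dispersion (edgeR 4.0.16, R 4.3.3, intercept only, TMM). Alternatives used DESeq2 1.42.0 size factors, TMM, other denominators, the count that ignores strand, other filters, thresholds and pseudocounts, and each library left out. Ratios, intervals and the dispersion were tested on simulated data. Python 3.11.15, numpy 2.4.6, scipy 1.17.1, pandas 2.3.3 and Biopython 1.88 were used.

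The members, gene lists and tests were chosen with earlier results of these data known. Named genes were the members, any gene sharing a run of 20 or more bases with one, the group of Mir15 and Mir107, the 4 most abundant metabolic genes and the 3 genes nearest to each member. Mir33, Mir126a, Mir133b, Mir194-2, Mir206 and the remaining genes named outside these rules were chosen after their values were seen. The muscle marker Mir486a had no match by name. A gene named Mir486, at 31.1 CPM in replicate 1 and 30.7 CPM in replicate 2, was not counted in its place.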

Additional observations from a re-analysis of the deposited data

Results flagged for a closer look

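Multimapping reads lie outside the gene counts and were far above the floor of 3 reads in each library: 3378438 reads in replicate 1 and 3295854 reads in replicate 2. Any read of miR-103-3p of up to 24 bases, and any read of miR-107-3p of up to 21 bases, that starts at the arm's 5′ end matches several annotated hairpins. How many of the multimapping reads came from these arms is not recorded in the tables. With 2 libraries of 1 group, neither outlying libraries nor differences between groups were looked for.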

How the results depend on the processing

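No value reversed under any alternative run. The ratio of Mir107 between replicate 1 and replicate 2 was 9.47 with all reads as the denominator, outside the counting interval of the value in the text, and 9.66 to 10.04 with strand ignored, TMM or DESeq2 size factors. The ratios of Mir103-1 and Mir103-2 stayed within their counting intervals. The mean of Mir103-2 was 11.9 CPM with all reads as the denominator and 37.3 CPM without the most abundant gene, by construction of those denominators. Leaving out a library gave a Mir107 level of 88.8 to 911 CPM and a log2 ratio of Mir107 to the Mir103 copies of 2.12 to 4.96; ratios between the libraries have no value without one. Over all genes, 185 of 708 had a ratio of 2 or more and 150 a ratio of 0.5 or less without a filter on counts, and 48 and 12 of 240 did with 100 or more reads, against 75 and 46 of 415 in the text; the cause was not tested. With 3 detected members in place of 2 when replicate 2 was left out, detection of Mir103-1 rested on replicate 1. Depth limits Mir103-1, which had 24 reads in all. Replicate numbers name libraries of 1 group. No paired analysis was possible because there is 1 group.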
